A study of Mus musculus with 11 samples.

Results

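Inward rectifier potassium (Kir) channels are encoded by the Kcnj genes, and 10 of these genes were followed in developing mouse retina: Kcnj2, Kcnj3, Kcnj4, Kcnj6, Kcnj9, Kcnj10, Kcnj11, Kcnj12, Kcnj13 and Kcnj14. They were taken by gene symbol from count tables that list 47069 genes. Of the 10, 8 passed a filter on low counts that kept 18188 genes in all, and Kcnj4 and Kcnj13 did not. The comparison asks whether the retina's own Kir genes change when a human Kir channel is expressed in it.

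The study placed Brn3b-Kir2.1 retinas beside wild-type retinas of C57BL/6 mice at postnatal days 4 and 8 (P4 and P8). Of 11 RNA-seq libraries, 2 of wild type and 3 of Kir2.1 came from P4, and each genotype had 3 from P8. Brn3b-Kir2.1 mice carry a cDNA of human Kir2.1 joined at its C-terminus to eYFP, a yellow fluorescent protein. It is driven by the CAG promoter once Cre removes a floxed STOP sequence, and Cre is made from Brn3b-cre, which is active in ganglion cells. Ganglion cells are a minority of the cells of a retina. The labels give 3 conflicting accounts. The later age is P8 in the age field and P11 in the extraction protocol, the controls are wild type in the genotype field and Brn3b-cre mice in the protocol, and the source is ganglion cells in one field and retina in another. The protocol describes dissociation of whole retinas without a sort. P8 and wild type are used here as the field values. The labels do not say that replicates are separate animals, so p-values measure only the spread between these libraries.

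Counts in genes ranged from 9362215 to 12478838 per library. Between 22609 and 24591 genes had a count in 10 libraries, and 31325 had one in Kir2.1 P8 replicate 2. Rod, bipolar and amacrine markers were present at both ages, so the libraries hold other retinal cells beside ganglion cells. WT P4 replicate 2 and WT P8 replicate 1 are referred to as the libraries that stood apart. On the first principal component WT P4 replicate 2 lay at -16.4, while the other P4 libraries lay between -74.6 and -55.4. The 3 WT P8 libraries were spread out: the summed rod marker level, in CPM (counts scaled to library size), was 504, 1994 and 4559 in replicates 1, 2 and 3. On the second principal component they lay at 74.6, 28.4 and -39.7, so replicate 3 is at the other end from replicate 1. Genotype folds of Kcnj2, Kcnj6, Kcnj9, Kcnj11 and Kcnj12 are given with and without libraries that stood apart. In a whole retina, fewer cells of a type and less RNA per cell cannot be told apart.

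Kir channels are tetramers that carry potassium into a cell more readily than out of it, because intracellular magnesium and polyamines block the outward current. They hold the resting potential near the potassium equilibrium. Strong rectifiers (Kcnj2, Kcnj12, Kcnj4, Kcnj14) clamp the resting potential of excitable cells. G protein-gated channels (Kcnj3, Kcnj6, Kcnj9) open when G-beta-gamma subunits are freed by receptors such as GABA-B. Kcnj10 is the main potassium conductance of Mueller glia, the radial glia that clear potassium from the retina, and Kcnj13 is known from the pigment epithelium. Kcnj11 forms ATP-sensitive channels together with a sulfonylurea receptor, Abcc8 or Abcc9.

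All 10 members have a selectivity filter, a short stretch of the pore. Some members have the same filter codons, as Kcnj2 and Kcnj14 do, and the bases around them differ between the members shown. The 39 bases around the filter codons are shown for 7 members, read 5′ to 3′ on the coding strand from GENCODE M21 transcripts (GRCm38). Capitals mark the 9 bases of the filter codons.
Kcnj2: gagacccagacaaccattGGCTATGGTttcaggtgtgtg
Kcnj14: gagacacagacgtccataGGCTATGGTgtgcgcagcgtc
Kcnj3: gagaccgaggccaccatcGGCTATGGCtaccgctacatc
Kcnj6: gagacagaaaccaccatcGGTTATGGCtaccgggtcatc
Kcnj9: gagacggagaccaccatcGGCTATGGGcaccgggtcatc
Kcnj13: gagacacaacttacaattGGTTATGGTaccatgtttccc
Kcnj11: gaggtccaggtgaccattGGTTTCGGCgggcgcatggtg
The middle codon is TAT in every member shown except Kcnj11, where it is TTC. Over the whole coding sequence the closest pair was Kcnj4 and Kcnj12, at 77.2% identity with a longest identical stretch of 32 bases. Kcnj2 and Kcnj12 shared 71% and Kcnj6 and Kcnj9 69.1%. The most distant pair was Kcnj11 and Kcnj13, at 49.8%.

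The human Kir2.1 cDNA is the counterpart of mouse Kcnj2, and its sequence was not used here. Whether transgene reads were counted towards mouse Kcnj2 was not tested, so a Kcnj2 count is the sum of whatever was assigned to that gene.

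Levels between genes were compared per length, as reads scaled to exon length and library size (RPKM). Kcnj9 and Kcnj6 had the highest means over the 11 libraries, 4.73 and 4.71 RPKM. Kcnj10 and Kcnj3 followed at 2.94 and 2.92, then Kcnj2 at 1.68 and Kcnj12 at 1.42. A wide step separated these 6 genes from Kcnj11 (0.386), Kcnj14 (0.249), Kcnj4 (0.114) and Kcnj13 (0.108). Neighbours in the order overlapped in their range over libraries, so Kcnj9 and Kcnj6, or Kcnj10 and Kcnj3, are not ordered by these data. Kcnj3 was the steadiest of the 6 higher genes, with a highest library 1.61 times its lowest in CPM, and Kcnj12 the most variable, at 18.9 times. The members' summed level lay between 66.6 and 115 CPM at P4 and between 94.0 and 174 CPM at P8.

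**Figure D1:**
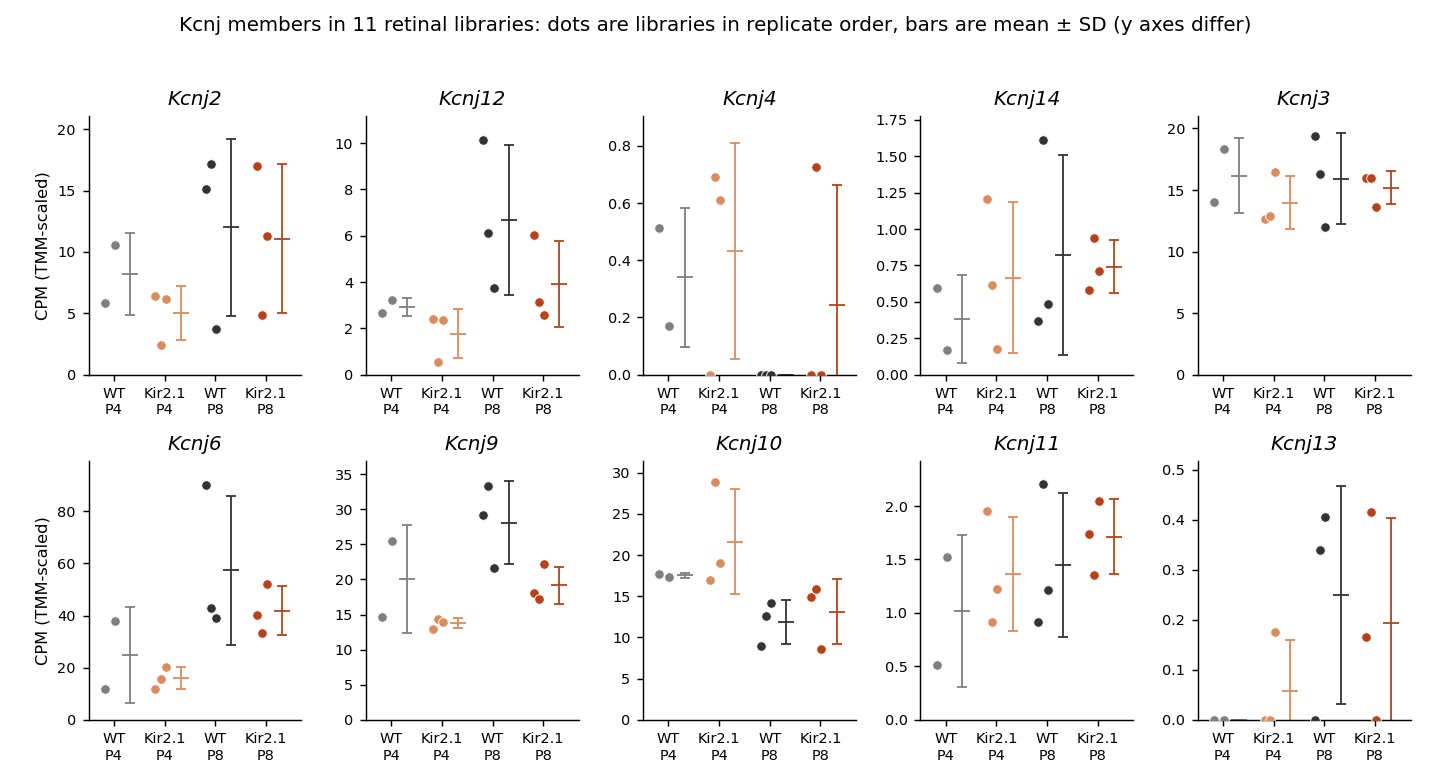
TMM-scaled CPM of the 10 members (1 panel each, own y axis) in WT P4 (2 libraries), Kir2.1 P4, WT P8 and Kir2.1 P8 (3 each); dots are libraries in replicate order and bars are mean ± SD, with bars drawn from 0 upward only. Kcnj6 reached 90.3 CPM in WT P8 replicate 1 and lay at 12.0 in the lowest P4 library, while Kcnj3 stayed between 12.0 and 19.4 CPM.

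Expression of Kir2.1 was first set against wild type at each age. No gene of the 18188 passed an adjusted p of 0.05 (edgeR's quasi-likelihood test, Benjamini-Hochberg over all genes tested) at P4, at P8, in the mean of both ages or in the difference between the ages, so the called share was 0% in each. Without WT P8 replicate 3 the calls were 219 at P8 and 609 in the mean of both ages. Before adjustment, p was under 0.05 for 1314 genes at P4, 1240 at P8, 2134 in the mean of both ages and 562 in the difference. With DESeq2 the calls were 21 genes at P4, 1 at P8 and 51 in the mean of both ages. Of the 8 members tested, 5 had a negative fold and 3 a positive one at P4, with a median log2 fold of -0.38. At P8, 6 were negative and 2 positive, with a median of -0.13. Over all genes tested the medians were 0.01 and 0.0034, and 48.7% and 49.4% of folds were negative.

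Among the strong rectifiers, Kcnj2 (ENSMUSG00000041695, chr11:111066164-111076821, plus strand, 2 exons) is the mouse counterpart of the transgene. Its level was 5.81 and 10.6 CPM in WT P4, and 6.41, 2.45 and 6.20 in Kir2.1 P4. In WT P8 it was 15.1, 17.2 and 3.74 CPM, and in Kir2.1 P8 17.0, 4.88 and 11.3. The groups overlapped at both ages, and 1 library of each P8 group was as low as the P4 libraries. The group means were 8.18 ± 3.36 CPM (SD, n = 2) in WT P4 against 5.02 ± 2.23 (n = 3) in Kir2.1 P4, and 12.0 ± 7.2 in WT P8 against 11.1 ± 6.1 in Kir2.1 P8 (n = 3 each), so neither Kir2.1 mean was the higher one. Its log2 fold was -0.71 ± 0.64 (SE) at P4 and -0.11 ± 0.56 at P8, and the mean of both ages was 0.754-fold with a 95% interval of 0.396 to 1.43. The adjusted p of that mean was 0.710 by edgeR. Without WT P4 replicate 2 the log2 fold at P4 was -0.21, and without both libraries that stood apart the mean of both ages was -0.061. A change within that interval was not detectable in these libraries.

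Kcnj12 (ENSMUSG00000042529, chr11:61022564-61071131, plus strand), a close relative of Kcnj2 that forms channels with it, had lower counts. It lay at 2.65 and 3.21 CPM in WT P4 and at 2.41, 0.536 and 2.36 in Kir2.1 P4, where every Kir2.1 library was below both wild-type ones. In WT P8 the libraries had 10.2, 6.12 and 3.74 CPM and in Kir2.1 P8 6.04, 3.12 and 2.59, which overlapped. The lowest of these values, in Kir2.1 P4 replicate 2, rests on 7 counts. The fold was -0.74 ± 0.62 on the log2 scale at P4 and -0.76 ± 0.52 at P8. The mean of both ages was 0.595-fold (95% interval 0.324 to 1.10, adjusted p = 0.474 by edgeR). The P4 fold was -0.28 without Kir2.1 P4 replicate 2, and the P8 fold -0.33 without WT P8 replicate 1. Without both libraries that stood apart the mean was -0.46 on the log2 scale. The mean did not pass the test in any alternative.

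The other strong rectifiers were near the detection limit. Kcnj14 (ENSMUSG00000058743, chr7:45816460-45824782, minus strand) had 2 to 19 counts per library and overlapping groups, with a mean log2 fold of 0.31 ± 0.64 between genotypes. Kcnj4 (ENSMUSG00000044216, chr15:79483714-79505241, minus strand) had 31 counts in all 11 libraries together. They fell in 5 libraries: 6 and 2 counts in WT P4, 9 and 7 in Kir2.1 P4 replicates 2 and 3, and 7 in Kir2.1 P8 replicate 2. All 3 WT P8 libraries had 0 counts. A count of 0 allows up to 3 counts, which is 0.230 to 0.312 CPM depending on the library, and covers counting error only.

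In the edgeR fit, Kcnj9 of the G protein-gated group was the only member with an unadjusted p under 0.05 between genotypes. It was so at P8 and in the mean of both ages, 12.5% of the 8 members tested. Over all genes tested the shares were 6.82% and 11.7%. Kcnj9 (ENSMUSG00000038026, chr1:172320501-172329318, minus strand), a subunit that works within mixed tetramers, had 14.6 and 25.5 CPM in WT P4 and 13.0, 14.3 and 14.0 in Kir2.1 P4. All Kir2.1 P4 libraries were below both wild-type ones, with 14.3 and 14.6 CPM as the closest pair. At P8 the wild-type libraries had 29.2, 33.4 and 21.7 CPM and the Kir2.1 libraries 18.0, 17.2 and 22.2, so that only the highest Kir2.1 library reached the lowest wild-type one. The log2 fold was -0.54 ± 0.25 at P4 and -0.55 ± 0.22 at P8. Their mean was 0.685-fold (95% interval 0.533 to 0.881). Its unadjusted p was 0.0067, which ranked 329th of 18188, and its edgeR adjusted p was 0.355.

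That Kcnj9 value rested in part on 1 library. Without WT P4 replicate 2 the log2 fold at P4 was -0.08 and the mean of both ages -0.32 (adjusted p = 0.583 by edgeR). Over the 18 alternatives for the mean, the log2 fold ran from -0.72 to -0.30. It passed in 1 of them, the test without a filter on low counts (adjusted p = 0.0391).

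Kcnj6 (ENSMUSG00000043301, chr16:94748636-94997701, minus strand), a pore subunit of neuronal G protein-gated channels, lay at 12.0 and 37.9 CPM in WT P4 and at 12.0, 15.5 and 20.3 in Kir2.1 P4. In WT P8 it was 90.3, 42.8 and 39.1 CPM, and in Kir2.1 P8 40.1, 33.5 and 52.0. The high wild-type values at each age were those of the libraries that stood apart. The mean genotype fold was -0.55 ± 0.30 on the log2 scale (adjusted p = 0.479 by edgeR). With both of those libraries left out it was 0.22, the opposite sign. Without a filter on low counts the adjusted p was 0.0055, at a log2 fold of -0.55.

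Kcnj3 (ENSMUSG00000026824, chr2:55435970-55598145, plus strand), the usual partner subunit of Kcnj6, was level throughout. It had 14.0 and 18.3 CPM in WT P4, 12.6, 12.9 and 16.4 in Kir2.1 P4, 19.4, 16.3 and 12.0 in WT P8, and 16.0, 16.0 and 13.6 in Kir2.1 P8. The mean genotype fold was 0.910 (95% interval 0.717 to 1.15), the narrowest interval among the members on the log2 scale. Of its exon length 31.1% is overlapped by the lincRNA gene Gm26794 on the opposite strand, and the strand setting of the counting is not given in the sources used here.

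Kcnj10 (ENSMUSG00000044708, chr1:172341210-172374085, plus strand) lies 11.9 kb from Kcnj9 and is read in the opposite direction. It had 17.8 and 17.3 CPM in WT P4 and 17.0, 28.9 and 19.0 in Kir2.1 P4. At P8 the wild-type libraries had 8.97, 12.6 and 14.1 CPM and the Kir2.1 libraries 15.0, 15.9 and 8.56. Both pairs of groups overlapped, with a mean genotype fold of 1.17 (95% interval 0.856 to 1.59, adjusted p = 0.668 by edgeR). The sum of 8 Mueller glia markers was 1682 to 1881 CPM in WT P4 and 1957 to 2606 in Kir2.1 P4, and its part in the Kcnj10 values was not tested.

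Kcnj11 (ENSMUSG00000096146, chr7:46093953-46100764, minus strand) had 6 to 26 counts per library, and its mean genotype fold was 1.26 with a 95% interval of 0.660 to 2.39. That is 0.33 on the log2 scale, and without both libraries that stood apart it was 0.70. Kcnj13 (ENSMUSG00000079436, chr1:87386363-87394729, minus strand) had 17 counts in all, in 5 libraries. These were 2 counts in Kir2.1 P4 replicate 3, 4 and 5 in WT P8 replicates 2 and 3, and 2 and 4 in Kir2.1 P8 replicates 1 and 2. The gene lies wholly within Gigyf2, whose exons on the opposite strand cover 49.1% of its exon length. The sum of 7 pigment epithelium markers was 5.36 to 17.6 CPM in 10 libraries and 25.2 in Kir2.1 P8 replicate 2. Most of it was Mitf, a pigment cell transcription factor, with 53 to 165 counts per library, except in that library, while Rpe65, a defining gene of that tissue, had 0 counts in 8 libraries and 9 in Kir2.1 P8 replicate 2.

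CPM ranges of Kir2.1 and wild type did not overlap for 2 of the 8 members at P4 (Kcnj9 and Kcnj12, both lower in Kir2.1) and for 0 at P8. Over all genes tested the shares without overlap were 26.7% and 10.6%, so the members' 25% at P4 is near the background. Sums of 10 marker lists were set beside these counts, and 0 markers of any list passed the test between genotypes at either age. At P4 the sums of 3 lists did not overlap. Ganglion cell markers summed to 690 to 1090 CPM in WT P4 and 173 to 542 in Kir2.1 P4, with 8 of 8 at a lower fitted level in Kir2.1 (median log2 fold -1.32) and none at 0 in any library. Pericyte and vessel markers summed to 44.8 to 54.7 CPM in WT P4 and 19.4 to 44.6 in Kir2.1 P4, with 7 of 7 lower (median -0.46). The third was the Mueller glia list given above, with 7 of 8 higher. Bipolar sums overlapped, 213 to 453 CPM against 236 to 304, with 5 of 6 lower and a median of -2.05. Rod sums also overlapped, 118 to 761 CPM against 252 to 397, with 5 of 6 lower and a median of -0.51. In both of these lists WT P4 replicate 1 lay below every Kir2.1 P4 library. The higher wild-type sum was that of replicate 2, which stood apart.

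At P8 the amacrine sum was 1542 to 3789 CPM in wild type and 1258 to 2052 in Kir2.1, with 5 of 5 lower (median log2 fold -0.56). The rod sum was 504 to 4559 CPM in wild type and 4043 to 4428 in Kir2.1, with 6 of 6 higher (median 0.90). Bipolar markers were 6 of 6 higher (median 0.18), and pericyte and vessel markers 7 of 7 higher (median 0.47). Markers of dividing cells were the list whose sums did not overlap at P8, 75.2 to 86.3 CPM in wild type and 86.8 to 119 in Kir2.1, with 5 of 5 higher at P8 (median 0.41) and at P4 (median 0.31). The part of these markers in the members' values was not tested.

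**Figure D2:**
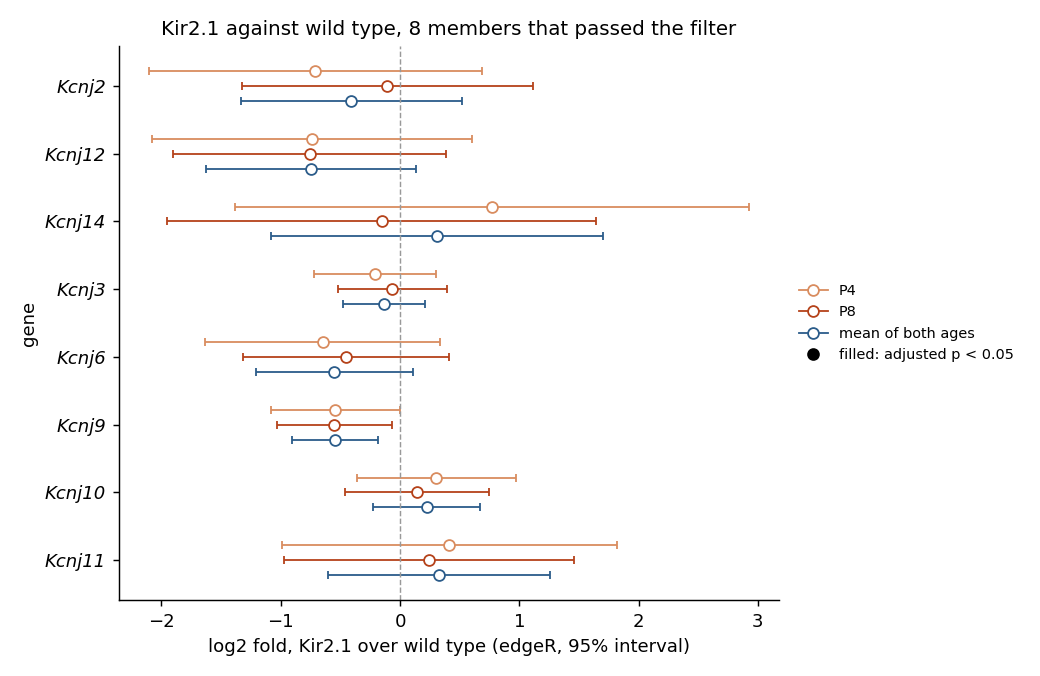
Log2 fold of Kir2.1 over wild type (x axis) with 95% intervals for the 8 members that passed the filter (y axis), at P4, at P8 and as the mean of both; an open circle is an adjusted p of 0.05 or more. All circles are open, and Kcnj9 is the member whose mean interval (-0.91 to -0.18) lies wholly below 0.

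The authors' deposited tables give their own Kir2.1 and wild-type comparison at each age. Their log2 folds followed those of the edgeR fit across genes, with Spearman's rho of 0.601 at P4 and 0.856 at P8. Genes are not independent replicates. The direction of the authors' folds is not stated and is read as the same from that correlation. Which libraries entered their comparison is not stated either, so the 2 sets of folds may rest on unlike libraries. The share of genes with an adjusted p that passed 0.05 was 2.27% at P4 and 7.27% at P8 in the authors' deposited tables. Of the members, 5 had an adjusted p at P4 and 6 at P8 in the authors' deposited tables, and 0 passed at either age. The lowest was that of Kcnj6 at P4 in the authors' deposited table, with a log2 fold of -1.01 and an adjusted p of 0.0679. Kcnj9 at P8 had -0.71 and 0.0867, and Kcnj2 at P4 had -1.38 and 0.156, in the authors' deposited tables.

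Age gave the members' only calls in the edgeR fit. From P4 to P8, Kcnj6 rose 2.46-fold in the mean of both genotypes (95% interval 1.54 to 3.93, adjusted p = 0.0104 by edgeR). Kcnj10 fell to 0.642-fold (95% interval 0.472 to 0.873, adjusted p = 0.0406 by edgeR). The other 6 members tested did not pass. This mean was added after the members' values had been seen, since each genotype alone holds few libraries. In it 22.8% of all genes passed, 10.7% higher and 12.1% lower at P8, so 1 member in each direction of 8 is near the background share. Markers of several cell types moved in the same contrast: 6 of 6 rod and 6 of 6 bipolar markers rose (median log2 folds 3.31 and 3.56), and 8 of 8 ganglion cell and 5 of 5 dividing-cell markers fell (medians -2.43 and -4.41). Of the pericyte and vessel markers 1 of 7 rose, with all 7 folds positive (median 0.95). Their part in the age changes of the members and partner genes was not tested.

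In wild type alone 4.39% of genes passed (0.803% higher and 3.58% lower at P8), and no member did. In Kir2.1 alone 16.7% passed (7.93% higher and 8.73% lower), and 1 member did, Kcnj6. Both genotypes gave Kcnj6 folds of like size, 1.20 ± 0.46 on the log2 scale in wild type (adjusted p = 0.176 by edgeR) and 1.40 ± 0.41 in Kir2.1 (adjusted p = 0.0374). The test of the difference between the genotypes had an adjusted p of 0.9998 for each of the 8 members. Every P8 library of a genotype was above every P4 library of that genotype, in wild type 39.1 to 90.3 against 12.0 to 37.9 CPM and in Kir2.1 33.5 to 52.0 against 12.0 to 20.3 CPM.

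The Kcnj6 rise in the mean of both genotypes passed in all 18 alternatives, with a log2 fold between 0.99 and 1.83. In Kir2.1 alone the call was lost in 7 of 14 alternatives, namely the removal of any 1 of its 6 libraries and the replicate block (adjusted p = 0.0636 by edgeR), with log2 folds between 1.21 and 1.61. In wild type it became a call in 3 alternatives: without WT P4 replicate 2 (log2 fold 2.264, adjusted p = 0.0204 by edgeR), without both libraries that stood apart (1.75, adjusted p = 0.0069) and with no filter on low counts (1.20, adjusted p = 1.4e-06).

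The Kcnj10 call held in fewer settings. Its log2 fold was -0.56 ± 0.30 for wild-type libraries and -0.72 ± 0.27 for Kir2.1 ones (adjusted p = 0.0964 by edgeR, 0.0377 by limma voom and 0.0331 by edgeR with no filter on low counts), and every P8 library was below every P4 library of the same genotype. In the mean of both genotypes the call was lost in 10 of 18 alternatives, with adjusted p up to 0.122 (without WT P4 replicate 1) and 0.0632 with the replicate number as a block. The log2 fold lay between -0.69 and -0.51 where the call was lost, and between -0.73 and -0.51 over all 18. The summed level of Mueller glia markers was 1682 to 2606 CPM at P4 and 1212 to 1927 at P8. The ages overlapped across genotypes but not within either. In the mean of both genotypes 4 of the 8 markers fell and 1, Aqp4, rose, opposite to Kcnj10. Their part in the Kcnj10 fall was not tested.

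Kcnj12, Kcnj9 and Kcnj2 had higher fitted levels at P8 without passing. Kcnj12 was 2.25-fold (95% interval 1.21 to 4.20, adjusted p = 0.0604 by edgeR), and its P4 and P8 libraries did not overlap in either genotype. Kcnj9 was 1.40-fold (1.08 to 1.80, adjusted p = 0.0593), with 13.0 to 14.3 CPM in Kir2.1 P4 below 17.2 to 22.2 in Kir2.1 P8 and an overlap in wild type. Kcnj2 was 1.80-fold (0.938 to 3.47, adjusted p = 0.184). Removal of WT P8 replicate 3 brought all 3 under the threshold, at adjusted p of 0.0329 for Kcnj12, 0.0252 for Kcnj9 and 0.0452 for Kcnj2. With no filter on low counts all 3 also passed, at 0.0049, 0.0354 and 0.0027, and so did Kcnj2 in Kir2.1 alone (0.0028). DESeq2 passed Kcnj12 (0.0231) and Kcnj9 (0.0414). Kcnj9 passed as well with limma voom (0.0176), without WT P4 replicate 2 (0.0113) and without both libraries that stood apart (0.0186). Kcnj3 was 1.03-fold (0.815 to 1.31).

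**Figure D3:**
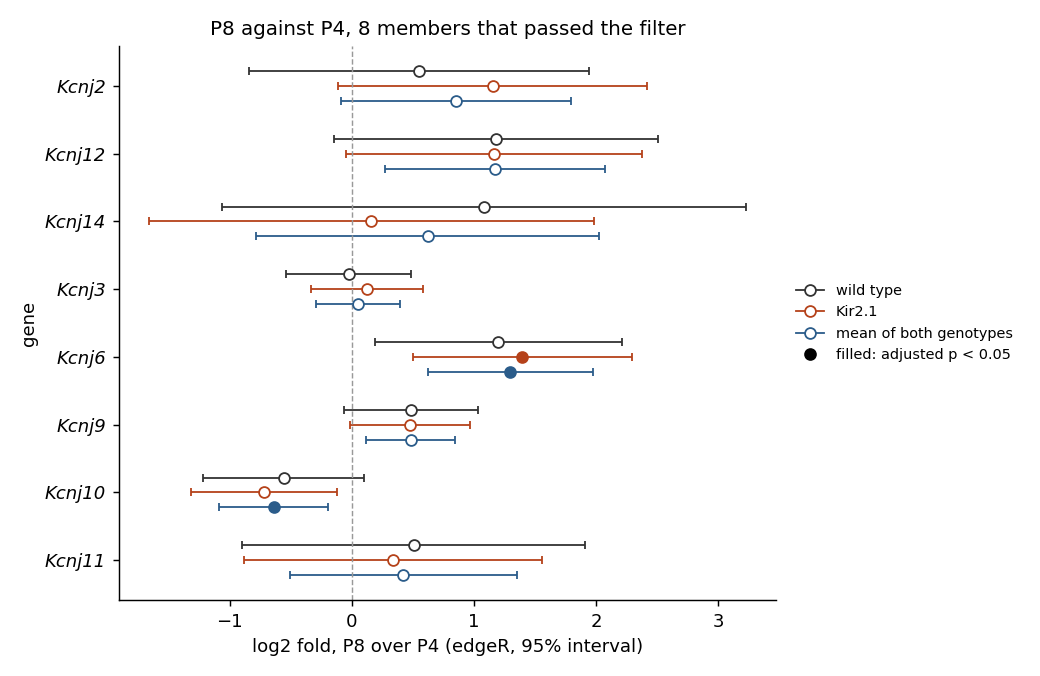
Log2 fold of P8 over P4 (x axis) with 95% intervals for the 8 members that passed the filter (y axis), in wild type, in Kir2.1 and as the mean of both; filled circles have an adjusted p under 0.05. Kcnj6 (Kir2.1 and mean) and Kcnj10 (mean) are filled, on opposite sides of 0, and Kcnj3 sits near 0 with the narrowest intervals.

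P4 and P8 ranges did not overlap for 3 of 8 members in wild type (Kcnj6 and Kcnj12 higher, Kcnj10 lower at P8) and for 4 of 8 in Kir2.1 (the same 3 and Kcnj9, higher). The shares over all genes tested were 31.1% and 38.1%, against 37.5% and 50% of the members. Kcnj6 took 17.5% to 33.1% of the members' summed CPM at P4 and 32.3% to 51.8% at P8.

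Among the remaining mouse Kir genes (Kcnj1, Kcnj5, Kcnj8, Kcnj15 and Kcnj16), 3 passed the filter. With age 2 of those 3 rose in the mean of both genotypes, beside 10.7% of all genes. Kcnj5, the G protein-gated subunit known from the heart, had 14 and 52 counts in WT P4 and 0, 6 and 3 in Kir2.1 P4. It had 87, 62 and 44 counts in WT P8 and 46, 36 and 39 in Kir2.1 P8. The libraries labelled Kir2.1 at P4 were thus nearly empty of Kcnj5, and every other group held it. Its log2 fold between genotypes was -3.42 ± 0.76 at P4, with an unadjusted p of 0.00074, the 21st lowest of 18188, and an adjusted p of 0.594 by edgeR. By DESeq2 the adjusted p was 0.0129, and over the 13 alternatives it ran from 2.7e-05 (no filter) to 0.957, with log2 folds from -4.26 to -2.21. From P4 to P8 it rose in Kir2.1 by 3.82 ± 0.72 on the log2 scale (adjusted p = 0.0040 by edgeR), a fitted value that depends on the few counts at P4. Kcnj8, the other gene that rose, had 0 to 2 counts per P4 library and 1 to 20 per P8 library. Its log2 fold in that mean was 3.18 ± 0.90 (adjusted p = 0.0244 by edgeR). It passed in neither genotype alone, with an edgeR adjusted p of 0.239 in wild type and 0.0767 in Kir2.1.

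Subunits and regulators of Kir channels were followed as a list of 29 genes, all of which passed the filter. Between genotypes 0 of 29 passed at either age, beside 0% of all genes. The edgeR p before adjustment was under 0.05 for 20.7% of the list at each age and 37.9% in the mean of both ages. Over all genes these shares were 7.22% at P4, 6.82% at P8 and 11.7% in the mean. From P4 to P8 in Kir2.1, 11 rose and 4 fell, beside called shares of 7.93% higher and 8.73% lower over all genes. The list's median log2 fold was 0.16, against 0.0046 over all genes. The largest changes were in Abcc8 and Abcc9, the sulfonylurea receptors that pair with Kcnj11, with log2 folds of 3.17 ± 0.39 and 2.43 ± 0.57. Aqp4, the glial water channel found beside Kcnj10 on Mueller endfeet, rose by 2.31 ± 0.66. Abcc8 passed in all 14 alternatives, while Abcc9 lost the call in 3 and Aqp4 in 5. Kcnj11 itself had a log2 fold of 0.34 ± 0.56 in the same contrast and Kcnj10 -0.72 ± 0.27. Kcnj8 had 3.22 ± 1.14 there, on the few counts given above.

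Abcc8 lay at 13.6 ± 4.1 CPM (SD, n = 2) in WT P4, 2.81 ± 0.98 (n = 3) in Kir2.1 P4, 26.7 ± 10.4 (n = 3) in WT P8 and 25.1 ± 8.3 (n = 3) in Kir2.1 P8. Its genotype difference at P4 was -2.28 ± 0.42 on the log2 scale, with an adjusted p of 0.458 by edgeR and 5.7e-04 by DESeq2. In wild type 2 of the 29 rose with age and 3 fell, beside 0.803% higher and 3.58% lower over all genes. Lin7a, which links channels to a membrane scaffold, had a log2 fold of 1.14 ± 0.17, and Gnb5, a G-beta subunit that pairs with RGS proteins, one of 1.10 ± 0.26. Gnai2 and Gnb4, also G protein subunits, fell by 0.86 ± 0.19 and 0.84 ± 0.20. All 4 lost the call when only the wild-type libraries were fitted, and when WT P4 replicate 1 was left out.

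Members differed in how they varied together over the 11 libraries. Kcnj6 and Kcnj9, both G protein-gated, had Pearson's r of 0.840 for log2 CPM, and 0.735 once group means were removed. Kcnj2 and Kcnj12, the strong rectifiers, had 0.791 and 0.773. Kcnj10 was negative with each of the other 6 members that averaged at least 1 CPM, from -0.78 with Kcnj6 to -0.30 with Kcnj3, and it stayed negative within groups (-0.55 to -0.20). Kcnj9 and Kcnj10, neighbours on chromosome 1, had -0.67. These are descriptions over libraries that share depth and tissue composition.

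**Figure D4:**
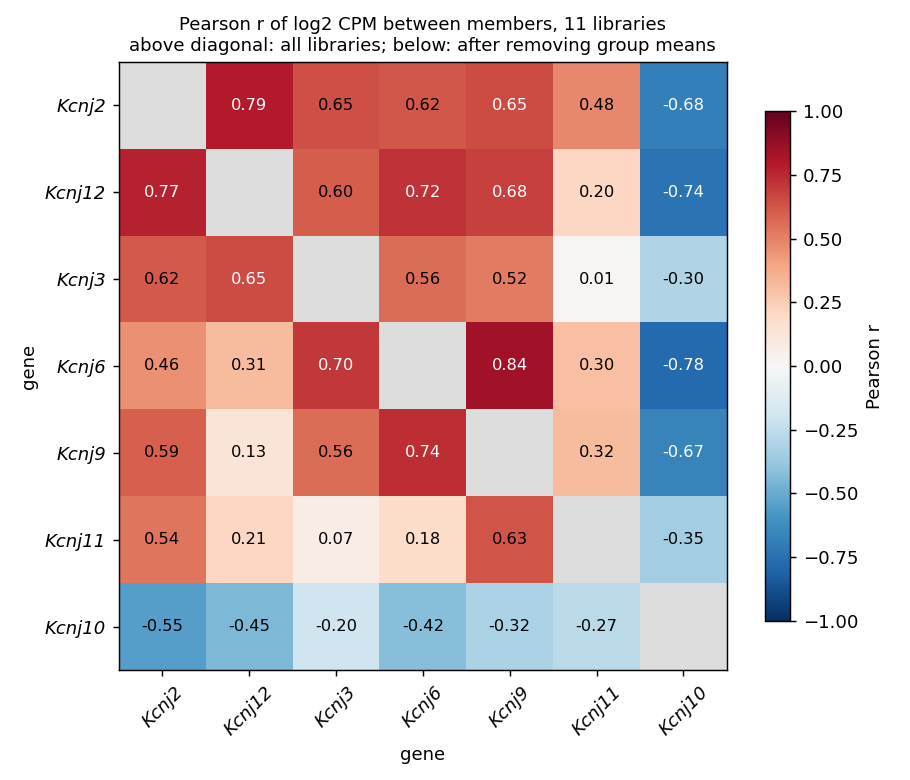
Pearson's r of log2 CPM between the 7 members with a mean of at least 1 CPM (both axes), over 11 libraries above the diagonal and after removal of group means below it; red is positive and blue negative. The Kcnj10 row and column are blue throughout, and the Kcnj6 and Kcnj9 pair has the highest value, 0.84.

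The genes whose log2 CPM most resembled a member's over the 11 libraries differed between members. For Kcnj6 they were Fstl5 (r = 0.993) and St8sia5 (0.987), and for Kcnj9 Cyp2u1 (0.958) and Rnf41 (0.957). Fstl5 averaged 87.6 CPM in WT P4, 69.9 in Kir2.1 P4, 173 in WT P8 and 127 in Kir2.1 P8, the same order of groups as Kcnj6. Kcnj2 was most like Rims1 (0.959), a presynaptic active-zone gene, and Chat (0.953), which makes acetylcholine in starburst amacrine cells. For Kcnj10 they were Dbi (0.958) and Tmprss5 (0.946), for Kcnj3 Kif2a (0.946) and Fam174b (0.897), and for Kcnj11 4933430H06Rik (0.855) and Strada (0.853). Cipc (0.952) was among those of Kcnj12.

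Marker sums were set beside the members in the same way. Kcnj10 had r of 0.867 with the Mueller glia sum over all libraries and 0.673 within groups. It was not alone in this: the sum of dividing-cell markers gave 0.750 over all libraries and 0.134 within groups. Lens and bipolar sums gave 0.617 and 0.566 within groups, against 0.043 and -0.51 over all libraries. With the pericyte and vessel sum Kcnj2 had 0.740 over all libraries and 0.658 within groups, and Kcnj12 0.782 and 0.734. With the ganglion cell sum the values over all libraries were -8.6e-05 for Kcnj2 and -0.23 for Kcnj12, against 0.753 and 0.755 within groups. Kcnj2 had 0.379 with the amacrine sum over all libraries and 0.822 within groups. Kcnj6 had -0.88 with the sum of 5 markers of dividing cells, and -0.83 within groups. That sum was 2286 and 833 CPM in WT P4 replicates 1 and 2, where Kcnj6 lay at 12.0 and 37.9 CPM. The sum was 1871 to 2391 in the Kir2.1 P4 libraries, 75.2 to 86.3 in WT P8 and 86.8 to 119 in Kir2.1 P8. No other group spread as far in proportion. The Kcnj6 value within groups thus leans on the WT P4 pair, of which replicate 2 stood apart.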

How the data were processed

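RNA of 11 libraries, from whole retinas by the protocol's account, was sequenced, and the authors deposited 1 table of raw counts per Ensembl gene for each. Per the submitters' processing notes the tools were cutadapt 1.18, STAR 2.5.0c, SAMtools 1.9, bedtools 2.26.0, HTSeq 0.6.1 and DESeq2, with build mm10; the annotation release and strand setting are not given in the sources used here. Records that name no gene, 74.6% to 79.8% of all records per library, were left out of library sizes. That is not a share of the stated reads, which were 16368599 to 22784329 per library, beside 9362215 to 12478838 counts in genes. The authors' deposited comparison tables hold, per the file headers, a mean normalized count (a signal), log2 fold changes with their standard errors, a statistic (a score), and p-values with adjusted p-values.

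Counts were fitted in edgeR 4.0.16 (R 4.3.3) with TMM scaling, filterByExpr by group, 4 group means over 11 libraries and the quasi-likelihood test, and p-values were adjusted over 18188 genes with a threshold of 0.05. Every adjusted p with no other tool named is from that fit. CPM values are TMM-scaled, and RPKM divides them by the exon length in GENCODE M21 (GRCm38). Coding sequences were aligned with Biopython 1.88. Symbols were matched for 46488 of 47069 IDs. No library was a duplicate of another of its group by a chi-square test over genes (9.11 to 62.9 per gene).

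The 10 members, the partner and marker lists and the tests were chosen with earlier results of these data known. All members were named whatever they showed; of the other Kir genes and the 29 partners, those past the threshold were named, at most the 4 with the largest change per contrast, and for each member the 2 genes of highest correlation. Some named genes and sequences are not reported here. Abcc8 and Kcnj5 were also given between genotypes, and marker correlations chosen, after their values were seen. Alternatives were other size factors, DESeq2 1.42.0, limma 3.58.1 voom with quality weights, no filter, a mean of at least 1 CPM, only the groups compared, a replicate block and each library left out. The mean of both genotypes for age, and the removal of both wild-type libraries that stand apart, were added after seeing the data.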

Additional observations from a re-analysis of the deposited data

How the results depend on the processing

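The members' log2 folds were recomputed 710 times over all alternatives. Direction and side of the threshold held in 640, 17 lost a call, 19 gained one and 34 changed sign; of 283 values of the other named genes, 27 lost and 7 gained a call and 0 changed sign. All sign changes were in folds that had not passed. Counts of calls between genotypes were 21 (P4), 1 (P8) and 51 (mean) with the DESeq2 test, and 339, 447, 901 and 136 (difference between ages) with no filter. P8 against P4 in wild type gave 1337 calls with DESeq2, 2058 with no filter, 113 with only the 2 groups fitted and 1845 without both wild-type libraries that stand apart, against 798. When each library was left out in turn, calls ran from 0 to 6 at P4, 0 to 219 at P8, 0 to 609 in the mean and 0 to 1 in the difference; the 219 and 609 came without WT P8 replicate 3. For age they ran from 163 to 1339 in wild type, 1764 to 2169 in Kir2.1 and 2133 to 4417 in the mean.

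Genotype folds turned without both wild-type libraries that stand apart: Kcnj6 to 0.41 at P4, 0.032 at P8 and 0.22 in the mean, Kcnj2 to 0.094, Kcnj3 to 0.10 and Kcnj10 to -0.028 at P8, and Kcnj3 to 0.049 and Kcnj14 to -0.18 in the mean. With voom Kcnj11 was -0.0045 at P8, Kcnj14 -0.028 in the mean, and Kcnj3 0.0090 for age in wild type. With each library left out in turn, ranges that crossed 0 were, at P4, Kcnj6 (-1.26 to 0.42) and Kcnj11 (-0.17 to 1.39); at P8, Kcnj2 (-0.56 to 0.25), Kcnj3 (-0.23 to 0.10), Kcnj6 (-0.67 to 0.032), Kcnj10 (-0.027 to 0.38) and Kcnj14 (-0.50 to 0.77); in the mean, Kcnj14 (-0.048 to 0.87). For age they were Kcnj3 (-0.21 to 0.18) and Kcnj11 (-0.072 to 1.48) in wild type, Kcnj14 (-0.29 to 0.85) in Kir2.1 and Kcnj3 (-0.054 to 0.15) in the mean.

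Same-numbered libraries shared at most a weak deviation: of 15 pairs across groups, r ran from -0.08 to 0.14 and 3 exceeded 0.1. All pairs of replicate 1 libraries were positive (0.012 to 0.128). Pairs of unlike number ran from -0.15 to 0.14. With the replicate number as a block, 0 genes passed between genotypes, 558 in wild type and 2928 in Kir2.1 with age, and Kcnj3 for age in wild type was 0.014. The block ended the calls of Kcnj6 with age in Kir2.1 (adjusted p = 0.0636 by edgeR) and of Kcnj10 with age in the mean (0.0632), and, among the partner genes named, those of Aqp4 in Kir2.1 (0.0559) and of Gnai2 (0.0643) and Gnb4 (0.0599) in wild type. The causes were not tested. The WT P4 group of 2 libraries and the low counts of Kcnj4, Kcnj11, Kcnj13 and Kcnj14 limit what could be detected.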
